A study of Solanum lycopersicum with 24 samples.

Results

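The comparison set leaves of a heat tolerant tomato genotype against leaves of a heat susceptible one when neither had been heated. It used 6 of the 24 arrays of the study: the 3 labelled as controls of the tolerant genotype and the 3 labelled as controls of the susceptible genotype, in the heat experiment. All 10038 probe sets of the array outside the AFFX and reporter sets were tested, of 10209 in the table. A probe set is a group of short probes that together report 1 transcript, and its value is on the log2 scale, so a difference of 1 is a doubling.

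The study exposed flowering tomato plants (Solanum lycopersicum) to drought or heat and hybridised leaf RNA to Affymetrix arrays, with 8 groups of 3 arrays. The unheated tolerant and unheated susceptible plants grew under normal conditions in a greenhouse, without stress. The heated tolerant and heated susceptible plants of the same experiment, used here for comparison, spent 60 min at 40 C in a growth chamber before sampling. The unstressed tolerant and susceptible controls of the drought experiment were a further comparison, and no array was shared between the 3 comparisons. The labels give no cultivar name or plant age and do not say that the drought experiment used the same genotypes. Whether replicates were separate plants is not stated, and the p-values therefore reflect the spread among these arrays alone, which could be technical. In leaf RNA, fewer cells of a type and less of a transcript per cell cannot be told apart.

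Plants answer wounding, pathogens and heat through overlapping hormone pathways: ethylene and jasmonate switch on defence genes such as proteinase inhibitors, and abscisic acid switches on genes that protect cells from water loss. Heat shock proteins are chaperones that refold or hold other proteins, and many of them are kept low until the plant is heated.

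The 2 groups of unheated arrays differed in technical measures as well as in genotype. The 63 reporter probe sets (named RPTR), used here as a measure of background, had a median of 4.24, 4.03 and 5.02 on the tolerant arrays 1 to 3, against 3.57, 3.55 and 3.50 on the susceptible arrays. The 3' probe sets of 6 control transcripts exceeded their 5' partners by 4.80 ± 0.15 on the tolerant arrays and by 3.58 ± 0.08 on the susceptible arrays (SD, n = 3 each), a gap that widens when RNA is degraded. The transcripts were not alike in this: for gapdh the gap was 4.66, 3.83 and 5.86 in tolerant plants, against 1.49, 1.67 and 1.64 in susceptible plants. For ubiquitin it was 4.51, 4.88 and 4.21 in tolerant against 4.41, 4.26 and 4.13 in susceptible plants, and there, as for ef1a, the genotypes overlapped. Tolerant array 3 stood apart from its group, with correlations of 0.946 and 0.969 to the other tolerant arrays, whereas the susceptible arrays correlated at 0.997 to 0.998. In heated plants the reporter medians were 3.51 ± 0.13 in tolerant and 3.42 ± 0.09 in susceptible plants, but the 3' to 5' gap was 3.95 ± 0.62 in tolerant against 3.08 ± 0.11 in susceptible plants (SD, n = 3 each). In the drought controls both measures again differed, with reporter medians of 4.06 ± 0.17 in tolerant against 3.08 ± 0.08 in susceptible plants and gaps of 2.51 ± 0.52 against 1.77 ± 0.12 (SD, n = 3 each). Within the 6 unheated arrays background, RNA integrity and genotype separate the same plants and cannot be told apart.

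**Figure D1:**
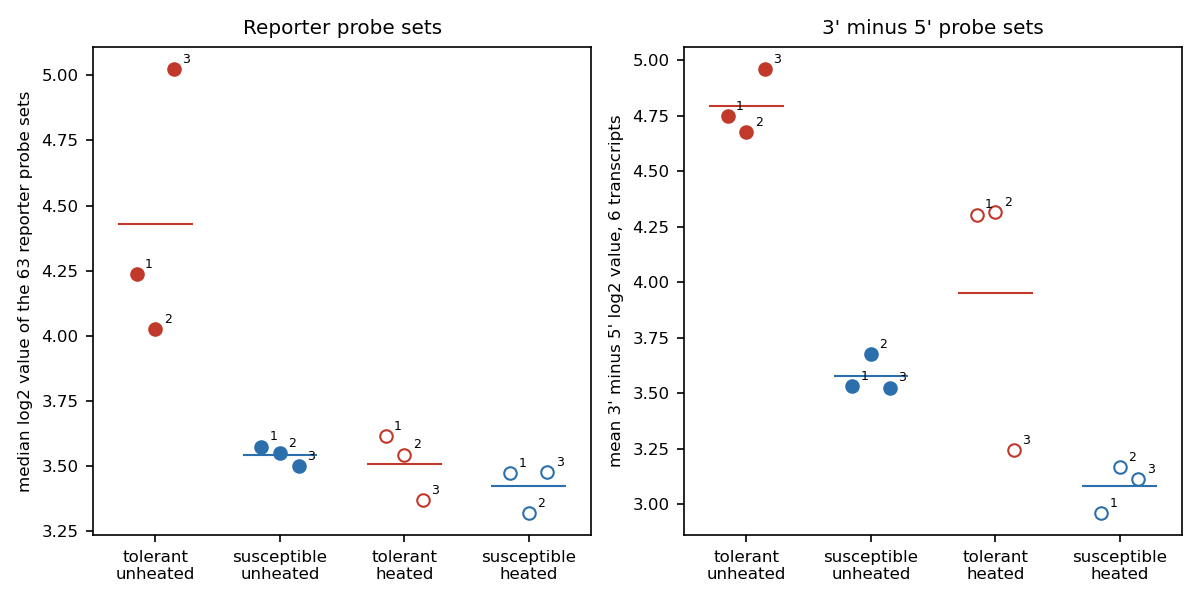
Median log2 value of the 63 reporter probe sets (left) and mean 3' minus 5' log2 value of 6 control transcripts (right) on each array of the heat experiment, with replicate numbers beside the points and lines at the group means. Filled points are unheated and open points heated plants; the 3 unheated tolerant arrays lie above all others in both panels.

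Of 10038 probe sets, 5826 differed between unheated tolerant and unheated susceptible plants by limma at an adjusted p under 0.05, which is 58.0% of those tested. In tolerant plants 3145 were higher (31.3%) and 2681 were lower (26.7%). Requiring a difference of at least 1 left 877 higher and 1253 lower. With the 3' to 5' gap of each array as a covariate the fit called 293, of which 87 were higher and 206 lower. Of the reporters themselves, 48 of the 63 were called higher in tolerant plants, with a median difference of 0.87, and in heated plants 0 of 63 were called by limma (2 at an unadjusted p under 0.05).

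Among dim probe sets most calls were higher. In the dimmest of 4 equal groups by mean level, 1094 were higher and 263 lower in tolerant plants, while in the brightest 501 were higher and 734 lower. Of the 5826 calls, 1419 lay within the range of the reporters in both genotypes, 1309 of them higher in tolerant plants. A probe set is said here to lie in the reporter range of a group when, on at least 2 of its 3 arrays, it did not exceed the 95th percentile of that array's reporters. No difference is given where both groups lay in that range, and one group in the range gives a bound, set by the reporters of that group's own arrays. An adjusted p printed beside a bound is limma's for the full difference, and the bound itself was not tested. Because the tolerant reporters were higher, a bound set by susceptible arrays does not allow for the tolerant background, and such genes are also given with every value raised to the highest reporter percentile of any array. Centring each array on its median raised the median difference of all probe sets to 0.28, against 0.08, and the share of calls that were higher to 68.8%, against 54.0%.

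Part of the genotype difference recurred in arrays that the comparison did not use. Of the probe sets called in unheated plants, 1613 were called in the same direction in heated plants. They made up 27.7% of the unheated calls and 51.0% of the 3163 heated ones. A further 349 were called in the opposite direction. In heated plants 31.5% of all probe sets were called, 18.06% higher and 13.45% lower in the tolerant genotype. The unstressed controls of the drought experiment had 6249 calls (62.3%), and 2786 probe sets were called in the same direction in both control comparisons, 47.8% of those in the heat and 44.6% of those in the drought experiment, while 894 were called in opposite directions. In a direct test the genotype difference itself changed between unheated and heated plants for 2762 probe sets (27.5%), and between the 2 experiments' controls for 4530 (45.1%).

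**Figure D2:**
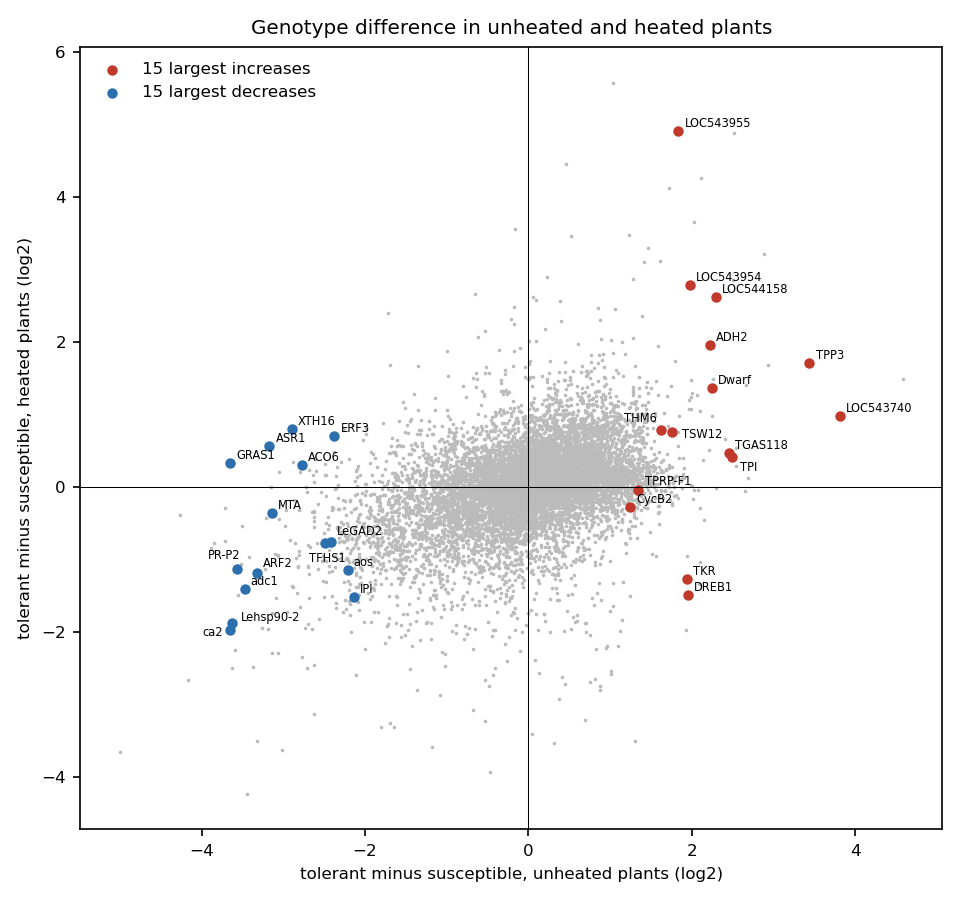
Tolerant minus susceptible log2 difference in unheated plants (horizontal) and in heated plants (vertical) for 10038 probe sets, each a grey point. Coloured points are the 15 largest increases (red) and 15 largest decreases (blue) among probe sets with a gene name. Proteinase inhibitors, extensin and Dwarf lie upper right, TKR and DREB1 lower right.

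Gene names come from the authors' 2 deposited comparison tables, which name 459 of these probe sets with 1 symbol each, 411 genes. The heat table's entries were picked by the study with these arrays, so counts of list members that it holds are not independent evidence of a direction, and 148 of its 201 probe sets were called (73.6%). Of the 258 named only in the drought table, 134 were called (51.9%), below the 58.0% of all probe sets.

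A pair of gamma-thionins was among the 15 largest increases in unheated tolerant leaves. TPP3, one of these small secreted defence peptides, had 11.08, 10.97 and 10.72 in tolerant plants, against 7.50, 7.47 and 7.48 in susceptible plants. The groups were far apart, with all 3 tolerant arrays above 10 and all 3 susceptible arrays below 8. The difference was 3.44 ± 0.13 (SE, adjusted p = 1.92e-07 by limma), 10.9-fold. It remained 1.71 in heated plants (adjusted p = 5.95e-06) and 2.28 in the drought controls (adjusted p = 1.52e-07). A second gamma-thionin, TGAS118, had 8.60, 8.69 and 8.67 in tolerant against 6.28, 6.13 and 6.19 in susceptible plants, a difference of 2.45 ± 0.16 (adjusted p = 6.89e-06). In heated plants the TGAS118 difference was 0.47 (adjusted p = 0.0471), and in the drought controls it was 3.404.

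Probe sets of the wound-induced proteinase inhibitors, which block the digestive enzymes of insects, were also among them. Proteinase inhibitor I (LOC543954) had 11.16, 11.14 and 11.30 in tolerant plants, against 9.15, 9.18 and 9.33 in susceptible plants. No array of 1 genotype came near the other, and the difference of 1.98 ± 0.12 (adjusted p = 3.67e-06) was 2.79 in heated plants and 2.50 in the drought controls. Its second, dimmer probe set was higher by 0.55 (adjusted p = 0.0169) and lower in heated plants, by -1.21. Proteinase inhibitor II (LOC543955) had 10.08, 10.05 and 10.02 in tolerant against 8.16, 8.29 and 8.20 in susceptible plants, a difference of 1.84 ± 0.09 (adjusted p = 1.59e-06) that reached 4.92 in heated plants. Its other, brighter probe set differed by -0.29 (adjusted p = 0.0742), so the 2 probe sets of this gene did not show the same thing. TSW12, a lipid transfer protein, was likewise split: one probe set was higher by 1.76 (adjusted p = 2.63e-06) and the other lower by -1.85 (adjusted p = 0.000121).

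The list of pathogenesis-related proteins as a whole did not move one way. Of its 16 members, 4 were higher, 3 were lower and 9 were not called, with a median of 0.30 against 0.08 over all probe sets, and 6 of the 16 lay in the reporter range in both genotypes. The share called higher was below the 31.3% of all probe sets. GluB, a beta-1,3-glucanase, was lower by -0.65 (adjusted p = 0.016). CHI17, a chitinase, was higher by 0.54 in unheated (adjusted p = 0.00192) and by 0.96 in heated plants, and lower by -1.84 in the drought controls. PR1b1, a marker of salicylate defence, was lower in tolerant plants by at least 0.22 (adjusted p = 0.000238 for the full difference, not for the bound). Its values were 4.58, 4.10 and 4.99 in tolerant against 6.44, 6.60 and 6.31 in susceptible plants, and the tolerant arrays lay in the reporter range. In the drought controls PR1b1 went the other way, higher in tolerant plants by at least 5.85. PR-P2 had 3 probe sets, which were called at -3.57 (a bound of 2.37), -2.13 and 0.96. Of the 11 secreted proteases and inhibitors, 2 were higher and 2 lower in unheated plants, whereas 9 were higher and 1 lower in heated plants. Over all probe sets 31.3% were higher and 26.7% lower unheated, and 18.06% and 13.45% heated. The subtilisin-like protease P69B was lower by at least 0.03 (adjusted p = 0.00694 for the full difference, not for the bound). The protease pip1 lay in the reporter range in tolerant plants and gave no bound.

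Genes that make and relay ethylene, the gaseous wound and ripening hormone, were mostly lower in unheated tolerant leaves. Of 6 genes of ethylene synthesis 4 were lower and 1 higher, and of 14 receptors and response factors 9 were lower and 3 higher. Over all probe sets 26.7% were lower and 31.3% higher. The list medians were -0.96 and -0.55, against 0.08 for all probe sets, and the heat table holds 5 of the 6 and 10 of the 14. With the 3' to 5' gap as a covariate 2 genes of each list were lower and 0 higher. ACS6, an ACC synthase, which makes the precursor of ethylene, had 10.15, 10.26 and 10.14 in tolerant plants, against 11.76, 11.83 and 11.79 in susceptible plants. The 2 sets of arrays were tight and did not overlap, and the difference was -1.61 ± 0.10 (adjusted p = 4.52e-06). In heated plants it was 0.16 (adjusted p = 0.254), and the change between the 2 conditions was 1.77 ± 0.14 (adjusted p = 2.05e-05). The drought controls had an ACS6 difference of -3.06.

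ACO6, an ACC oxidase of the last step, had 8.70, 9.36 and 7.57 in tolerant against 10.11, 9.92 and 9.76 in susceptible plants on its brighter probe set. Tolerant array 3 was the lowest and array 2 the nearest to the susceptible plants, and the difference was -1.39 ± 0.34 (adjusted p = 0.00596), or -2.77 on the second probe set. LE-ACS3, another ACC synthase, lay in the reporter range in tolerant plants and gave no bound. EFE, a further ACC oxidase, was higher by 0.59 (adjusted p = 0.0199).

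Downstream, the ethylene response factors named Pti, first found as partners of the Pto resistance kinase, were lower: PTI5 had 9.71, 9.64 and 9.85 in tolerant plants, against 11.01, 11.04 and 10.94 in susceptible plants. Tolerant array 3 was the highest of its group here, and the difference was -1.26 ± 0.10 (adjusted p = 1.44e-05). PTI6 differed by -1.29 ± 0.10 (adjusted p = 1.44e-05), and ERF3, titled ethylene response factor 2, by -2.37 ± 0.28 (adjusted p = 0.000121). In heated plants none of the 3 was called: PTI5 differed by 0.18, PTI6 by -0.12 and ERF3 by 0.70. The ethylene receptor ETR4, which holds the pathway off until it binds ethylene, was higher by 1.01 ± 0.12 (adjusted p = 0.000123).

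Kinases and calmodulin went both ways: of 7 members 2 were higher, 2 lower and 3 not called, with a median of 0.15. Of 8 stress regulators 2 were higher, 3 lower and 3 not called. The shares over all probe sets were 31.3% higher and 26.7% lower. The higher kinases were cpk1, a calcium-dependent kinase, at 0.55 (adjusted p = 0.00706) and LeMKK3, a kinase of kinases, at 0.48 (adjusted p = 0.0359). MPK3, a mitogen-activated kinase of stress signalling, was lower on each of its 3 probe sets, by -1.36 on the brightest (adjusted p = 0.00063), and WRKYIId-2, a WRKY regulator, by -1.64 ± 0.17 (adjusted p = 6.6e-05). Calmodulin CALM1LE, on the probe set that stands for it here, was lower by -1.25 ± 0.21 in unheated (adjusted p = 0.000783) and by -1.88 in heated plants. The tyramine hydroxycinnamoyl transferases, which make phenolic amides for the wall, were all 3 lower. On its brighter probe set THT1-3 had 9.47, 9.54 and 8.76 in tolerant against 10.94, 10.79 and 10.81 in susceptible plants, a difference of -1.59 ± 0.19 (adjusted p = 0.000134), and THT7-1 differed by -0.99 and THT7-8 by -1.90. Chalcone synthase CHS2, from the flavonoid pathway, was higher by 0.46 (adjusted p = 0.0027) and in heated plants lower by -0.54.

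Jasmonate genes were split. Allene oxide synthase (aos), an early enzyme of jasmonate synthesis, had 8.61, 9.07 and 7.69 in tolerant against 10.72, 10.65 and 10.65 in susceptible plants. All tolerant arrays were lower, by -2.21 ± 0.27 (adjusted p = 0.000169), and the difference was -1.14 in heated plants and -4.23 in the drought controls. Lipoxygenase loxD was lower by -0.96 (adjusted p = 0.00169) and higher by 0.94 in heated plants, a change of 1.90 ± 0.26 (adjusted p = 0.000553). LEJA3 did the same, at -0.93 unheated and 0.68 heated. The oxophytodienoate reductase gene opr2 was higher by 1.09 (adjusted p = 0.000391; 0.19 and not called with values raised to the highest reporter percentile), and LEJA1 by 0.68. In all, 3 of 9 jasmonate and systemin genes were higher, 4 lower and 2 not called. All probe sets together had 31.3% higher and 26.7% lower.

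**Figure D3:**
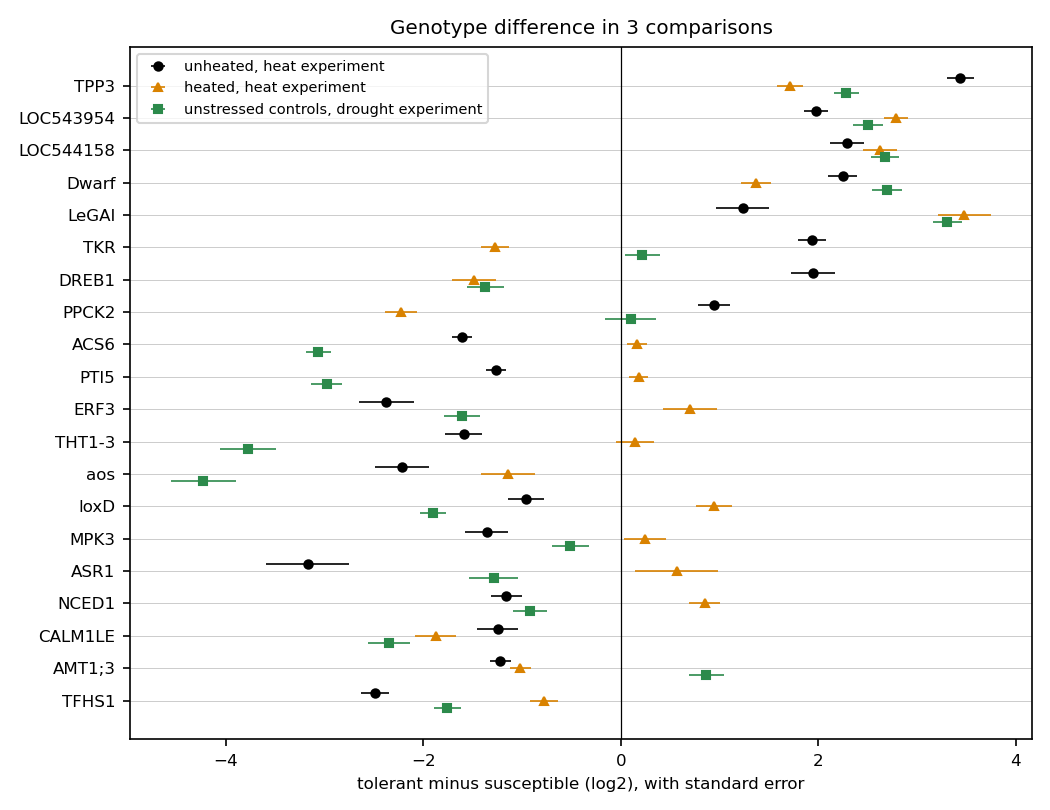
Tolerant minus susceptible log2 difference with its standard error for 20 genes: unheated plants of the heat experiment (black circles), heated plants (orange triangles) and unstressed controls of the drought experiment (green squares). Thionin, proteinase inhibitor, extensin and Dwarf lie right of 0 in all 3, while ACS6, PTI5, ERF3 and THT1-3 lie left of 0 in both control comparisons and close to 0 or right of it in heated plants.

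Genes of abscisic acid and water stress gave few common directions. NCED1, the rate-limiting enzyme of abscisic acid synthesis, had 8.60, 8.80 and 8.11 in tolerant against 9.61, 9.65 and 9.74 in susceptible plants. It was lower by -1.16 ± 0.16 (adjusted p = 0.000271) and in heated plants higher by 0.85 (adjusted p = 0.00195). The protein phosphatase 2C DIG3 was lower by -0.75, and the bZIP factor LeAREB, of a family that binds abscisic acid response elements, higher by 0.86 (adjusted p = 0.00432), a call lost with values raised to the highest reporter percentile, at 0.38. ASR1, a protein induced by abscisic acid, stress and ripening, had 7.70, 8.37 and 7.13 in tolerant against 10.90, 10.72 and 11.10 in susceptible plants, a difference of -3.17 ± 0.42 (adjusted p = 0.00024). With the 3' to 5' gap as a covariate it was -1.11 and not called (adjusted p = 0.118). A second ASR1 probe set was higher by 0.82 (adjusted p = 0.0193). The dehydrin TAS14 lay in the reporter range in both genotypes, and the LEA-like ER5 was lower by -0.49 (adjusted p = 0.0129).

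DREB1, a factor that binds the dehydration response element in stress-induced promoters, had 7.55, 7.41 and 8.08 in tolerant plants, against 5.58, 5.99 and 5.63 in susceptible plants. The groups did not overlap, and the difference of 1.95 ± 0.22 (adjusted p = 0.000115) turned to -1.49 in heated plants (adjusted p = 0.000516). The change between conditions was -3.43 ± 0.32 (adjusted p = 4.63e-05). The unheated DREB1 difference was 0.85 with values raised to the highest reporter percentile, and 0.995 and not called (adjusted p = 0.0806) with the 3' to 5' gap as a covariate. In the drought controls DREB1 was lower by at least 0.54.

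Chaperones were called in both directions or not at all before heating, when 58.0% of all probe sets were called. Of 5 small heat shock proteins 2 were higher and 3 were not called, and of 6 large chaperones 1 was higher, 1 lower and 4 not called. The medians were -0.00 and -0.08. HSP21, the chloroplast small heat shock protein, had 9.63, 9.63 and 9.73 in tolerant against 8.71, 9.20 and 9.35 in susceptible plants. That is a difference of 0.58 ± 0.14 (adjusted p = 0.00636), with susceptible array 1 the lowest. The small heat shock protein vis1 was higher by 0.41 (adjusted p = 0.00499) and in heated plants lower by -0.37. In heated plants 5 of the 6 large chaperones were lower in the tolerant genotype, where 13.45% of all probe sets were. The heated list median was -1.502. Lehsp90-2 had 4.56, 5.47 and 3.99 in tolerant against 8.49, 8.28 and 8.12 in susceptible plants, lower by at least 2.07 unheated (adjusted p = 2.58e-05) and by -1.87 heated. The higher large chaperone, HSP90, lay in the reporter range in both genotypes. TFHS1, titled heat shock protein and in neither list, had 9.09, 9.57 and 9.17 in tolerant against 11.80, 11.76 and 11.73 in susceptible plants. Its difference was -2.49 ± 0.14 (adjusted p = 2.81e-06), with -0.78 in heated plants and -1.76 in the drought controls.

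Among growth hormones, the brassinosteroid enzyme Dwarf, a cytochrome P450 that makes castasterone, was higher in tolerant plants in all 3 comparisons. Its brighter probe set had 7.56, 7.40 and 7.92 in tolerant against 5.54, 5.33 and 5.27 in susceptible plants, a difference of 2.25 ± 0.15 (adjusted p = 7.09e-06). It was 1.37 in heated plants (adjusted p = 6.31e-05) and 2.70 in the drought controls. With values raised to the highest reporter percentile the unheated Dwarf difference was 0.79 and still called (adjusted p = 0.000765). LeGAI, a DELLA repressor of gibberellin responses, had 7.14, 7.25 and 7.10 in tolerant against 5.96, 6.01 and 5.82 in susceptible plants. Its difference of 1.23 ± 0.27 (adjusted p = 0.00337) was 3.48 in heated plants and 3.31 in the drought controls, and with values raised to the highest reporter percentile it was 0.33 and not called (adjusted p = 0.298). GRAS1, of the same broad family of regulators, was lower by at least 2.46 (adjusted p = 9.85e-05) and differed by 0.33 in heated plants. The gibberellin 20-oxidase 20ox-1 was higher by 0.43 (adjusted p = 0.0411). Auxin response factor ARF2 had 6.19, 6.96 and 5.24 in tolerant against 9.71, 9.34 and 9.31 in susceptible plants, a difference of -3.32 ± 0.44 (adjusted p = 0.000247), yet 6 of the 12 auxin genes were not called.

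**Figure D4:**
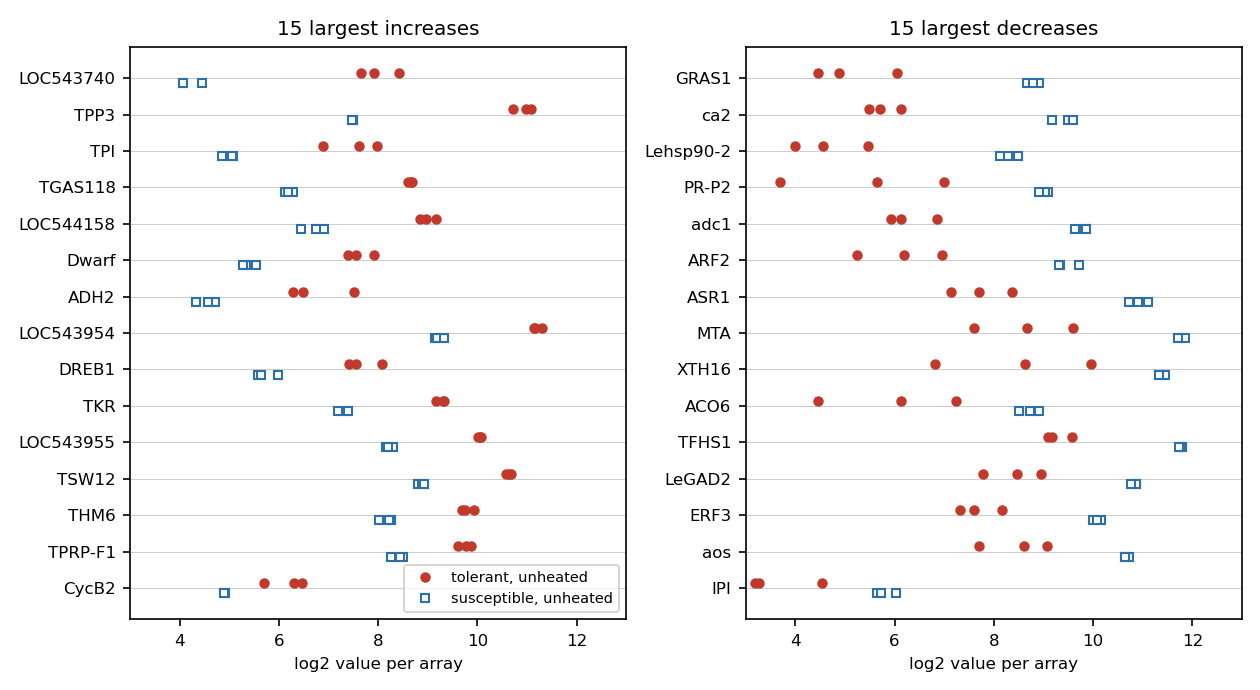
Log2 value on each unheated array for the 15 named genes with the largest increases (left) and the 15 with the largest decreases (right) in tolerant plants, red circles tolerant and blue open squares susceptible. Genotypes do not overlap in any row, by the way the genes were chosen, and the tolerant arrays are spread more widely among the decreases.

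Cell division genes were mostly higher in tolerant plants: of 11 histone and cell cycle genes, 9 were higher, 1 was lower and 1 was not called, with a median of 0.65 against 0.08 over all probe sets, of which 31.3% were higher. The heat table holds 6 of the 11, and with the 3' to 5' gap as a covariate 1 was called higher. The mitotic kinase cdkB2 had 9.66, 9.86 and 9.64 in tolerant against 8.48, 8.58 and 8.54 in susceptible plants. The 2 groups were more than 1 apart, with a cdkB2 difference of 1.19 ± 0.14 (adjusted p = 0.000112), and cdkB1 differed by 1.05 ± 0.11 (adjusted p = 7.75e-05). Cyclin B2, CycB2, had 6.30, 6.46 and 5.70 in tolerant against 4.89, 4.92 and 4.90 in susceptible plants, which lay in the reporter range. The rule above makes its difference a bound. That bound is not printed here, because those tolerant values lie close to the tolerant reporters' 95th percentiles of 6.09, 5.75 and 6.83. In heated plants 4 of the 11 were higher and 2 lower, where 18.06% and 13.45% of all probe sets were. There cdkB2 was lower by -0.78 (adjusted p = 0.00132). The kinesin TKR, a motor that moves along microtubules, had 9.16, 9.31 and 9.32 in tolerant against 7.39, 7.39 and 7.20 in susceptible plants. It was higher by 1.94 ± 0.14 (adjusted p = 9.1e-06) and lower by -1.27 in heated plants, a change of -3.21 ± 0.20 (adjusted p = 5.47e-06). The general kinase cdc2A-1 was the lower member, by -0.24 (adjusted p = 0.0427).

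By full fitted difference the largest increase among named genes was that of a wall protein, at 3.81. LOC543740, an extensin-like protein, had 7.91, 7.66 and 8.42 in tolerant plants, against 4.06, 4.07 and 4.44 in susceptible plants, which lay in the reporter range. Measured against the susceptible reporters its difference was at least 3.04 (adjusted p = 4.64e-06), and with values raised to the highest reporter percentile it was 1.17 (adjusted p = 0.000185). The TPP3 difference was 3.44 with or without that raising, so the first rank of LOC543740 rests on values in the reporter range. The extensin LOC544158 had 8.85, 8.96 and 9.16 in tolerant against 6.44, 6.90 and 6.74 in susceptible plants, and its difference of 2.29 ± 0.17 (adjusted p = 1.13e-05) was 2.62 in heated plants and 2.68 in the drought controls. Extensins are hydroxyproline-rich proteins that cross-link into the wall. The proline-rich protein TPRP-F1 was higher by 1.34 (adjusted p = 0.000165) and differed by -0.03 in heated plants. Of the 18 wall proteins outside the xyloglucan and expansin families, which include both extensins, 4 were higher and 4 lower unheated. Over all probe sets 31.3% and 26.7% were. In heated plants 12 of the 18 were higher and 3 lower, where 18.06% and 13.45% of all probe sets were.

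Enzymes that cut and rejoin xyloglucan, a wall polysaccharide, were mostly not called: of 16 xyloglucan transferases and expansins 1 was higher, 5 were lower and 10 were not called. Among all probe sets 31.3% were higher and 26.7% lower. LeXET2 differed by -0.96 ± 0.12 (adjusted p = 0.000143) and tXET-B1 by -0.63 (adjusted p = 0.00256), and in heated plants they were higher by 0.53 and 1.49. XTH7 differed by -1.19 (adjusted p = 0.000527). The 2 probe sets of XTH16 differed by -2.90 (adjusted p = 0.00227) and, on the brighter one, by -0.18 (adjusted p = 0.299). Endoglucanase Cel1 was lower by -0.67 (adjusted p = 0.000546) and higher by 1.504 in heated plants.

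Photosynthetic transcripts, which check the labelled tissue, were among the brightest on all 6 arrays. CAB5, a chlorophyll-binding antenna protein, had 11.77, 12.04 and 10.69 in tolerant against 12.41, 12.49 and 12.56 in susceptible plants. Of 10 light harvesting and photosystem genes, 5 were lower, 1 was higher and 4 were not called, with a median of -0.36. For all probe sets the median was 0.08, with 26.7% lower and 31.3% higher. CAB5 differed by -0.99 (adjusted p = 0.00923), the photosystem I gene LOC543978 by -1.15 (adjusted p = 0.00557) and psbX by -0.67 (adjusted p = 0.0224). In each of these 3 tolerant array 3 was the lowest of the 6, and none was called in heated plants or with the 3' to 5' gap as a covariate. PSBR, of photosystem II, was higher by 0.68 (adjusted p = 0.00211) and in heated plants lower by -0.997. Of 6 flower and pollen genes, as markers of other organs, 5 were called higher and 1 lower, and 4 of the 6 lay in the reporter range in both genotypes. Of the 2 fruit markers 1 was higher, at 0.68 (DDTFR18), and 1 lower, at -0.80 (DDTFR10/A), both above the reporters.

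Carbonic anhydrase ca2 showed how far probe sets of 1 gene can part. Its 4 probe sets differed by -3.65 (a bound of 3.08), -0.79, -0.44 and 0.26, of which the first 2 were called. Across the 40 named genes with several probe sets, 19 had differences more than 1 apart, and 6 had probe sets called in opposite directions. Both kinases that switch on phosphoenolpyruvate carboxylase were higher unheated and lower heated: PPCK1 differed by 0.96 and -2.19, and PPCK2 by 0.95 and -2.22. With values raised to the highest reporter percentile neither unheated call remained. The same held for carbonic anhydrase ca3, higher by 0.85 unheated and by 2.47 heated. On one probe set violaxanthin de-epoxidase VDE, a carotenoid enzyme, was lower by -1.29 (adjusted p = 0.00138) and by -1.06 in heated plants. The other VDE probe set was called the opposite way in unheated plants, at 0.78. PPCK2 changed between the conditions by -3.17 ± 0.23 (adjusted p = 1.02e-05).

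In nitrogen and amino acid metabolism, glutamate decarboxylase LeGAD2, which makes GABA, had 8.47, 8.95 and 7.79 in tolerant against 10.86, 10.86 and 10.76 in susceptible plants. It was lower by -2.42 ± 0.26 (adjusted p = 7.82e-05) and by -0.75 in heated plants. Arginine decarboxylase, of polyamine synthesis, was lower by at least 3.18 as adc1 (adjusted p = 0.000147) and by -0.88 as ADC (adjusted p = 0.007). Arginase ARG2 was higher by 0.38 on one probe set (adjusted p = 0.00886), with 0.05 on the other (adjusted p = 0.76), and by 2.56 in heated plants. Fructokinase Frk1 was higher by 0.59 unheated and lower by -1.76 heated, and sucrose-phosphate synthase (sps) was lower by -1.03 (adjusted p = 0.000114). Metallothionein MTA, which binds metal ions, had 8.66, 9.59 and 7.60 in tolerant against 11.86, 11.71 and 11.71 in susceptible plants, a difference of -3.14 ± 0.42 (adjusted p = 0.00025).

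Transporters were mostly lower: of 17 aquaporins and other transporters 9 were lower, 2 higher and 6 not called, with a median of -0.39 against 0.08 over all probe sets, of which 26.7% were lower. The heat table holds 12 of the 17, and with the 3' to 5' gap as a covariate 3 were lower. The direction did not recur as a list: in heated plants 4 of the 17 were higher and 5 lower, with a median of 0.03. In the drought controls 8 were higher and 2 lower, where 37.63% and 24.63% of all probe sets were. The ammonium transporter AMT1;3 had 7.47, 7.58 and 7.31 in tolerant against 8.76, 8.64 and 8.63 in susceptible plants. Its difference of -1.22 ± 0.11 (adjusted p = 2.71e-05) was close to the -1.02 of heated plants and opposite to the 0.87 of the drought controls. The proline transporter LeProT2 differed by -1.31 (adjusted p = 0.00033) and the metal transporter LeNRAMP3 by -1.66 (adjusted p = 0.00115). Sulfate transporter ST2 was higher by 0.80 (adjusted p = 0.00186). The blue light receptors CRY1A and Cry1b were lower by -0.61 and -0.73, and Cry1b was higher by 0.33 in heated plants. Of the flowering regulators, CO1 lay in the reporter range in both genotypes, and CIP1 lay in it in tolerant plants and gave no bound.

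Of 10 antioxidant enzymes 2 were higher, 3 lower and 5 not called, a share of calls near the 58.0% of all probe sets. Dehydroascorbate reductase DHAR1, which recycles ascorbate, was higher by 1.22 (adjusted p = 0.00194), but with values raised to the highest reporter percentile by 0.014 and not called. The superoxide dismutase SODCP.2 and catalase cat1 were lower by -0.88 and -0.57.

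**Figure D5:**
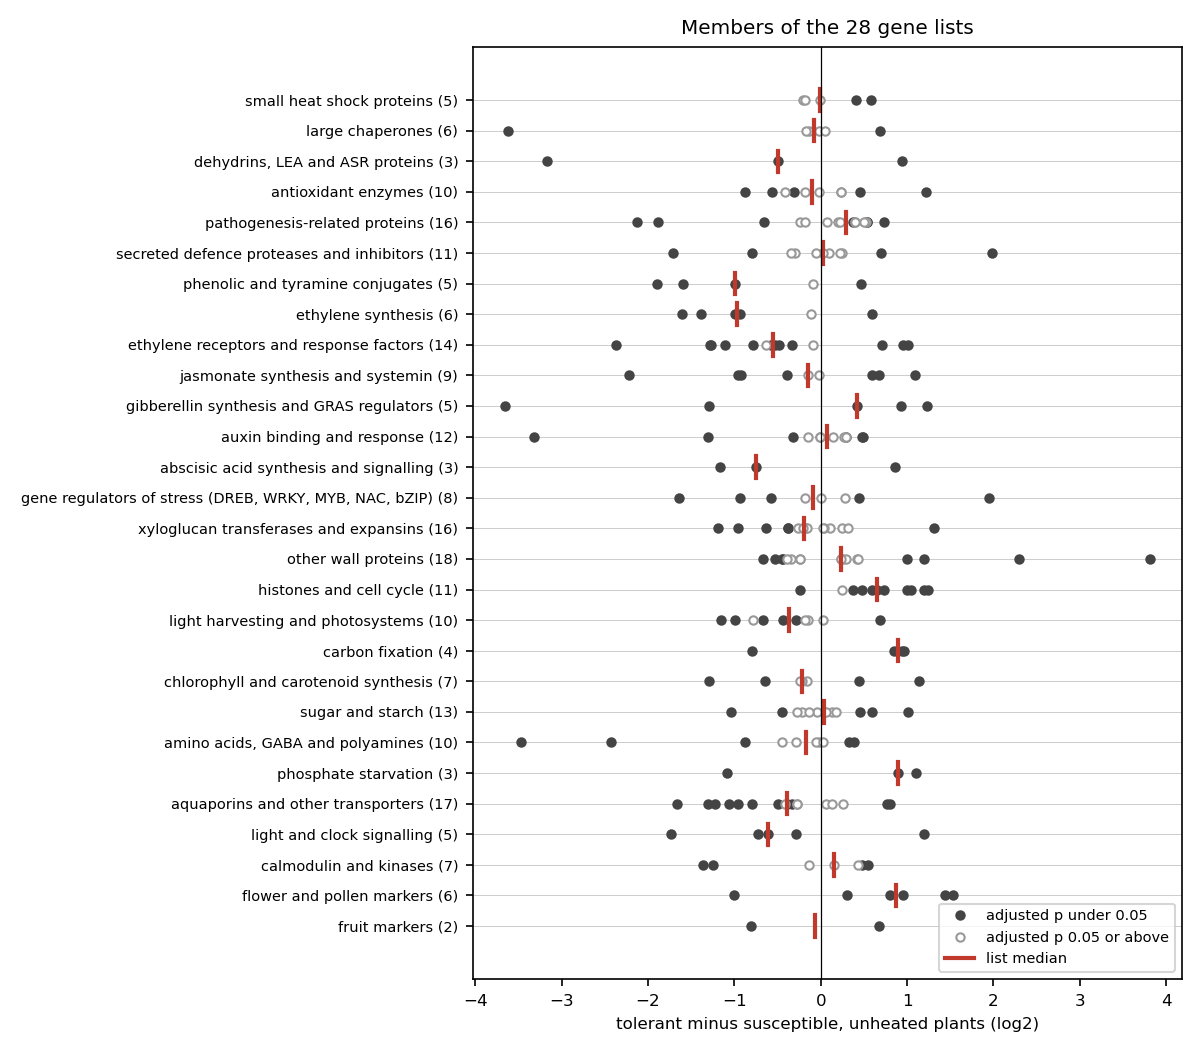
Tolerant minus susceptible log2 difference in unheated plants for members of 28 gene lists, 1 probe set a gene, with the number of members in brackets. Filled points had an adjusted p under 0.05 and red bars mark list medians; the cell cycle list lies mostly right of 0, and the ethylene, transporter and tyramine conjugate lists mostly left of it.

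Of the other largest increases, TPI had 7.61, 6.89 and 7.97 in tolerant against 5.08, 4.86 and 5.05 in susceptible plants. Its difference was 2.49 ± 0.31 (adjusted p = 0.000172), and 0.66 with values raised to the highest reporter percentile. Alcohol dehydrogenase ADH2, an enzyme of fermentation, had 6.48, 6.29 and 7.52 in tolerant against 4.33, 4.72 and 4.57 in susceptible plants, which lay in the reporter range. With values raised to the highest reporter percentile ADH2 differed by 0.23 and was not called (adjusted p = 0.386), and in heated plants it was higher by 1.96. THM6, titled a transcription factor, was higher by 1.63 ± 0.17 (adjusted p = 8.48e-05) and by 0.79 in heated plants.

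Tolerant array 3 was the lowest and array 2 the highest of the 3 tolerant values in 13 of the 15 largest decreases. That order held in 71.8% of all probe sets called lower by at least 1, and in 33.7% of all tested. Tolerant array 3 was instead the highest of the 3 in 9 of the 15 largest increases. It was so in 81.6% of the probe sets called higher, against 48.0% of all tested. With the 3' to 5' gap as a covariate, 9 of the 15 increases and 3 of the 15 decreases were called, and of 135 probe sets of the named genes and lists 33 kept their call. That fit called 293 of all 10038 probe sets, 87 higher and 206 lower. The increases and decreases were chosen for their size, so their shares are not comparable with that of all probe sets. Among the genes described here, the calls kept were the increases of LOC543740, TPP3, TGAS118, LOC544158, Dwarf, LOC543954, TKR, LOC543955, TSW12, LeGAI and cdkB1. The decreases kept were those of ACS6, PTI5, PTI6, THT1-3, THT7-1, CALM1LE, WRKYIId-2, DIG3, LEJA3, Cry1b, LeXET2, Cel1, AMT1;3, sps, TFHS1, Lehsp90-2, PR1b1, P69B, pip1 and the largest of ca2. For LOC543740, Lehsp90-2, PR1b1, P69B, pip1 and ca2 the kept call is for the full difference, with the dimmer genotype in the reporter range. Of these pip1 gave no bound. Without tolerant array 3 EFE, 20ox-1 and cdc2A-1 were not called, at 0.40, 0.27 and -0.19, and neither was HSP90, which lay in the reporter range. Of the increases, 10 were called the same way and 2 the opposite way in heated plants; of the decreases, 7 were called the same way and none the opposite way. All of the 15 increases and 15 decreases were called with any 1 of the 6 arrays left out. They were chosen for size and lack of overlap on these same arrays, so this is no separate evidence for them. Among all calls in unheated plants, 72.5% were called in all 6 of these fits. Of the 15 decreases, 5 are bounds, and 1, IPI, gave none.

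By full fitted difference the largest unnamed decrease and the largest unnamed increase each exceeded those of the named genes. The probe set with the largest decrease had 6.63, 7.38 and 5.59 in tolerant against 11.63, 11.50 and 11.49 in susceptible plants. Its difference was -5.004 ± 0.34 (adjusted p = 7.36e-06), with -3.65 in heated plants, and it was lower by at least 6.10 in the drought controls. The largest unnamed increase was 4.58 in full (adjusted p = 8.07e-07), but its susceptible arrays lay in the reporter range. Against the susceptible reporters it was at least 2.26, and with values raised to the highest reporter percentile it was 0.39 (adjusted p = 0.0196). Of the 2 unnamed probe sets with the largest increases, the one above the reporter range in both genotypes had 9.52, 10.19 and 10.64 in tolerant against 7.12, 7.26 and 7.31 in susceptible plants. Its difference of 2.88 ± 0.32 (adjusted p = 0.0001) was 3.22 in heated plants and 2.03 in the drought controls. Over unheated and heated plants together, 20 probe sets lay in the reporter range on every tolerant array and above it on every susceptible array, and 1 probe set showed the reverse. The 2 counts are not on equal terms, because the range reached higher on the unheated tolerant arrays. Its upper limit was 5.75 to 6.83 there, against 4.85 to 5.06 on the unheated susceptible arrays.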

How the data were processed

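Leaf RNA of 24 samples was hybridised to Affymetrix arrays. The authors deposited log2 values per probe set, made with RMA 1.0 in Affymetrix Expression Console per the submitters' processing notes; parameters are not given in the sources used here. RMA subtracts background, equalises the arrays' distributions and summarises probes, and can shrink differences of dim probe sets. The authors' deposited tables of fold changes were used only to name probe sets, and older locus symbols were updated through RefSeq (assembly SLM_r2.1), which found 128 of 135. Probe sets with several symbols were left unnamed.

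The 12 heat arrays were fitted as 4 group means in limma 3.58.1 (R 4.3.3) and tolerant minus susceptible tested within unheated plants, within heated plants and between the 2 conditions. A second fit on the 12 control arrays of both experiments gave the drought comparison. Benjamini-Hochberg adjustment ran over 10038 probe sets, and the fits were tested on simulated data. The text names the 15 largest called increases and decreases among non-overlapping probe sets with a single named gene. For these, probe sets in the reporter range in both genotypes were left out. It also names up to 3 called members per direction of each gene list, and up to 2 unnamed probe sets per direction. Lists count the brightest probe set of each gene. Members and lists were chosen with earlier results of these data known. The number of arrays limits the precision. Alternatives were other normalizations, fewer arrays, array weights, filters on dim probe sets, an RNA integrity covariate and a replicate block.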

Additional observations from a re-analysis of the deposited data

Results flagged for a closer look

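The genotype difference changed between unheated and heated plants for 2762 probe sets, and between the controls of the heat and drought experiments for 4530, by limma's test of the difference between differences at an adjusted p under 0.05. Of 99 probe sets of genes named above, 60 passed the first of these tests with no group in the reporter range, and 12 more passed it with a group in that range and are not given. That range is set by each group's own arrays. With values raised to the highest reporter percentile of any array, the unheated calls lost included PPCK1, PPCK2, LeAREB, opr2, DHAR1, ca3 and LeGAI. The values that follow are the heated difference minus the unheated one, on the log2 scale.

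In 21 of the 60 the genotype difference was called in opposite directions. These include PPCK1, PPCK2 and LeAREB, whose unheated calls did not remain with values raised to the highest reporter percentile. The change was upward for DDTFR10/A at 2.20, Cel1 at 2.18, tXET-B1 at 2.12, NCED1 at 2.01, loxD at 1.90, LEJA3 at 1.61, LeXET2 at 1.49, DIG3 at 1.09, Cry1b at 1.06 and cdc2A-1 at 0.55. It was downward for DREB1 at -3.43, TKR at -3.21, PPCK2 at -3.17, PPCK1 at -3.15, Frk1 at -2.35, cdkB2 at -1.97, PSBR at -1.68, LeAREB at -1.55, 20ox-1 at -1.34, CHS2 at -1.003 and vis1 at -0.78.

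Upward changes without opposite calls were ASR1 at 3.74, XTH16 at 3.70, proteinase inhibitor II (LOC543955) at 3.08, ERF3 at 3.08, ACO6 at 3.08 and 1.99 on its 2 probe sets, MTA at 2.78, LeGAI at 2.25, ARG2 at 2.18 and ARF2 at 2.14. Further ones were LeNRAMP3 at 1.85, WRKYIId-2 at 1.77, ACS6 at 1.77, THT1-3 at 1.73, TFHS1 at 1.71, LeGAD2 at 1.67, ca3 at 1.62, MPK3 at 1.60, PTI5 at 1.44, PTI6 at 1.17, THT7-1 at 1.16 and LeProT2 at 1.10. The smallest were ADC at 1.00, CRY1A at 0.87, proteinase inhibitor I (LOC543954) at 0.81, sps at 0.80 and cat1 at 0.79.

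Downward changes without opposite calls were TGAS118 at -1.98, TPP3 at -1.73, opr2 at -1.45, TPRP-F1 at -1.38, DHAR1 at -1.16, TSW12 at -1.0001, Dwarf at -0.88, THM6 at -0.84, ST2 at -0.84, cdkB1 at -0.80, ETR4 at -0.79 and LeMKK3 at -0.75.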

How the results depend on the processing

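Adding the 3' to 5' gap of each array as a covariate left 293 calls in unheated plants, 87 higher and 206 lower, and 112 called in the same direction in heated plants. Of 135 named probe sets, 33 kept their call, 96 lost it and 6 changed sign without a call: HSP90 at -0.13, TAS14 at -0.066, EFE at -0.11, 20ox-1 at -0.11, ZIP at -0.15 and LIN7 at -0.18. The gap and the genotype separate the same unheated arrays and cannot be told apart there. Raising all values to the highest reporter percentile gave 3626 calls among 6764 probe sets, 1618 of them higher. Leaving out the dimmest 25% gave 2002 higher among 7528 tested, and requiring a difference of 1 gave 2130 calls, 877 higher and 1253 lower, with 1496 for the change between unheated and heated plants. Array weights raised that change to 6271 and the calls shared with heated plants to 3958; the cause was not tested. Centring the arrays gave 4593 higher and 2082 lower. The shared calls were counted under these alternatives after seeing the data.

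Leaving out 1 array at a time gave 4514 to 6543 calls in unheated plants, and 1848 to 4474 for the change between unheated and heated plants, the highest without tolerant array 2. The shared calls ranged over 1241 to 2191. A fit with the replicate number as a block called 5763 in unheated plants and 2623 for the change. Deviations of same-numbered tolerant and susceptible arrays correlated at 0.15, 0.07 and 0.33, so the numbers were not taken to pair the samples, and tolerant array 2 correlated better with susceptible array 1, at 0.26. Among the cell cycle genes, cdc2A-1 was not called with the block.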
